A study of Caenorhabditis elegans with 2 samples.

Results

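Chromatin immunoprecipitation sequencing (ChIP-seq) measured where HMG-20 sat on the genome of whole Caenorhabditis elegans, and its regions were examined at the 129 nuclear genes annotated as snRNA genes in Ensembl release 115, among 46890 nuclear genes in all. That annotation alone decided which genes belong, but the set was picked for study with earlier results of these data known. The genes comprise 30 spliced leader genes, 18 named sls-2 and 12 named sls-1, and 99 other snRNA genes. For each gene the strongest ranked region with its summit, the highest point of a peak, within 200 bp of the 5′ end was taken. The worms were young adults of strain RW12240 at 64 hours, grown from starved first-stage larvae, whose hmg-20 gene on chromosome I carried an inserted TY1, EGFP and 3xFLAG tag, and an antibody against GFP was used. All samples share that tag: there was 1 group of 2 biological replicates, and an untagged or input control was not analysed here. Whole animals were taken, so a signal averages over all their cells. HMG-20 carries an HMG box, a DNA-binding domain, and is related to mammalian HMG20 proteins.

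Small nuclear RNAs (snRNAs) are short RNAs that, with the Sm proteins or their relatives, form the particles of the spliceosome. In nematodes a further set of such particles carries a spliced leader, a short exon at the 5′ end of the spliced leader RNA that is joined in trans to the pre-mRNAs of other genes. SL1, made from sls-1 genes, goes to many pre-mRNAs, and SL2, made from sls-2 genes, goes mainly to downstream genes of operons. Most snRNA genes are transcribed by RNA polymerase II and U6 genes by RNA polymerase III, from short promoters with a proximal sequence element bound by the SNAP complex. Many snRNA genes are close copies of each other, so the genes were grouped by their sequence. Apart from the named sls-2, sls-1 and smy genes, each group is called by 1 member and holds at least 5 gene models linked by at least 75% identity. The remaining 16 genes include 2 linked pairs, F20D1.21 with F35B3.10 and B0213.21 with C41G6.17.

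Regions of the conservative list, which both replicates supported at an irreproducible discovery rate (IDR) of 0.01, had their summit within 200 bp of the 5′ end at 31 of the 129 snRNA genes, or 24.0% (95% exact interval 16.9 to 32.3, counting error only), against 1.74% of all nuclear genes and 1.68% of the nuclear genes other than these. The share was 32.5% for tRNA genes, 19.7% for snoRNA genes, 1.53% for miRNA genes and 1.15% for protein-coding genes, while 0 of 20 rRNA genes had such a summit. The 31 genes shared 29 different summits. From the thresholded list of a single replicate the count was 18 genes in replicate 1, against 0.915% of all nuclear genes, and 12 in replicate 2, against 0.855%. A further 47 snRNA genes had a ranked region below the threshold, and 51 had no ranked region within 200 bp, of which 5 had one in the other ranked list of the series. Any ranked summit was present at 60.5% of the snRNA genes, against 22.2% of all nuclear genes. It was present at 501 of 612 tRNA genes and 185 of 346 snoRNA genes, so this is not particular to snRNA genes. Genes are not replicates and many are copies of each other, so these shares are descriptions and carry no test.

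By group, 13 of the 18 sls-2 genes had a conservative summit, or 72.2% (46.5 to 90.3), and 0 of the 12 sls-1 genes. In the group of sup-6, a U1 snRNA gene, 5 of 13 genes had one, at 4 different summits. In the R07E5.16 group 5 of 24 genes did, in the F38E11.11 group 3 of 12, in the C52E4.8 group 2 of 5 and in the C47F8.9 group 1 of 19. None of the 10 smy genes, which make the SmY RNAs, held one, and 2 of the 16 remaining genes did. All spliced leader genes together had 43.3% (25.5 to 62.6) and the other snRNA genes 18.2% (11.1 to 27.2). In the list of replicate 1 alone these were 5 of 30 and 13 of 99 genes, and in that of replicate 2 alone 6 of 30 and 6 of 99. On chromosome III 8 of 13 genes had a conservative summit, on chromosome IV 8 of 41 and on chromosome V 6 of 40. On chromosome II 6 of 16 genes did, on chromosome I 2 of 16 (sls-2.4 and sls-2.9) and on the X chromosome 1 of 3. The genes of chromosomes II and V shared 5 different summits on each. All 12 sls-1 genes are among the 40 of chromosome V, and shares over all genes of each chromosome are not given here.

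**Figure D1:**
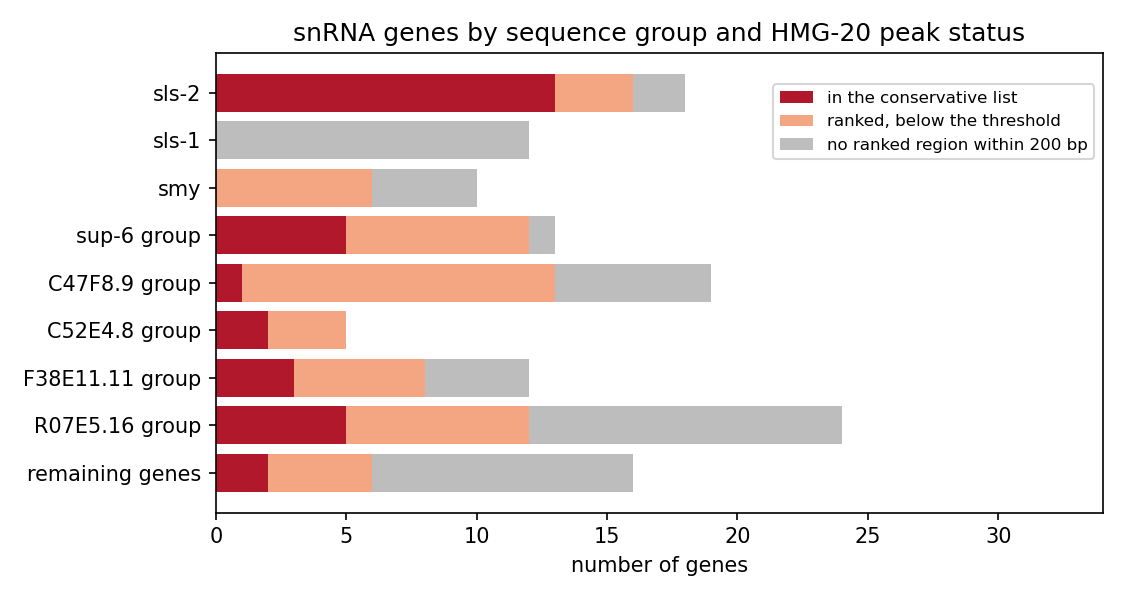
Number of snRNA genes in each sequence group (bars, horizontal axis), split by whether the strongest region within 200 bp of the 5′ end was in the conservative list, ranked below its threshold, or absent. The sls-2 bar holds 13 conservative genes of 18, and the sls-1 bar holds 12 genes with no ranked region.

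The pooled signal, the authors' peak height from both replicates on a scale that the files do not state, had a median of 75.7 over the 31 genes and ranged from 58.0 to 290.6. All 979 nuclear conservative regions, near a gene or not, had a median of 76.8. Counted by gene in the same way, the median was 81.2 over all nuclear genes with a conservative summit. It was 81.3 for tRNA genes, 96.3 for snoRNA genes and 78.4 for protein-coding genes. Over the 78 snRNA genes with any ranked region the median was 49.0, against 25.5 for all nuclear genes with one, 53.5 for tRNA genes and 43.5 for snoRNA genes. Replicate signals are given below as replicate 1 and replicate 2 with their mean ± SD (n = 2), and the pooled value has no error of its own.

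**Figure D2:**
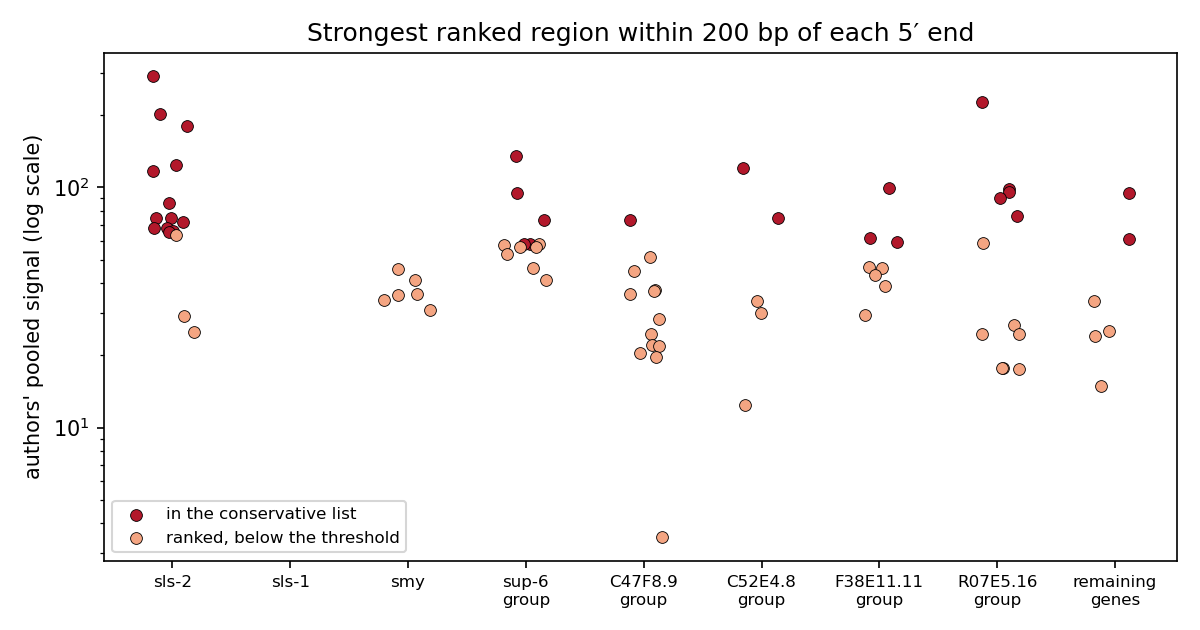
Pooled signal of the strongest ranked region within 200 bp of the 5′ end (log axis) for each of the 78 snRNA genes with such a region, by sequence group, in dark red if conservative and light if below the threshold. The sls-2 group reaches 290.6, the sls-1 column is empty, and all 6 smy genes shown lie between 30.8 and 45.7.

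The strongest snRNA gene was sls-2.1 (WBGene00004833), which makes an SL2 RNA. Its upstream sequence is shown with that of sls-2.2, because both genes stood among the 3 highest, and sequences are read 5′ to 3′ from the RefSeq genome of build WBcel235, which has the coordinates of ce11.
sls-2.1 upstream, chrII:5844765-5844864, plus strand: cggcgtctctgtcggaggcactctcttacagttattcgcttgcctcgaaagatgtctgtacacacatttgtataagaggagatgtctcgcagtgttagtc
sls-2.2 upstream, chrII:5543498-5543597, plus strand: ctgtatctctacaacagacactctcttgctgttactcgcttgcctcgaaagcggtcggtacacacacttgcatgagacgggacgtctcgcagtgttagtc
The signal at sls-2.1 was 171.0 in replicate 1 and 108.6 in replicate 2 (139.8 ± 44.1), the pooled signal was 290.6 and the summit stood 18 bp upstream of the 5′ end. It ranked 11 among the 979 nuclear conservative regions. At sls-2.2 the signals were 121.3 and 84.8 (103.1 ± 25.8), the pooled signal was 202.7 and the summit stood 5 bp upstream. At sls-2.4 they were 110.8 and 71.8 (91.3 ± 27.5), with a pooled signal of 180.1 and the summit 29 bp upstream. All 3 genes, together with sls-2.3, carry the same leader, and their replicate 1 signals were higher than those of replicate 2.

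The sls-2.3 gene, which lies within 1000 bp of sls-2.2 on the opposite strand of chromosome II, was the lowest of the spliced leader genes with a conservative summit. Its signals were 43.2 and 29.5 (36.3 ± 9.64), with a pooled signal of 65.5. So the 4 genes with 1 and the same leader all had a conservative summit and spanned pooled signals of 65.5 to 290.6. The 3 genes that share another leader, sls-2.5, sls-2.6 and sls-2.7, had none. Of these, sls-2.7 had a region of pooled signal 63.1 below the threshold and sls-2.5 one of 24.9, while sls-2.6 had no ranked region within 200 bp. The 18 sls-2 genes carry 11 different leaders.

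Further sls-2 genes had lower signals that still passed. At sls-2.9 the signals were 75.1 and 47.2 (61.1 ± 19.7), with a pooled signal of 124.3. At sls-2.8, on chromosome III, they were 66.6 and 54.3 (60.4 ± 8.75), with a pooled signal of 116.5 and the summit 58 bp inside the gene. Both genes lay in both replicates' own thresholded lists. The next, sls-2.15, had a pooled signal of 86.2, but its summit lay 178 bp downstream of the 5′ end. It is the only one of the 31 genes whose summit lay over 100 bp away. The lowest after sls-2.3 were sls-2.17, with signals of 25.9 and 39.4 (32.7 ± 9.54), and sls-2.16, with 44.8 and 31.8 (38.3 ± 9.15). At sls-2.17 replicate 2 was the higher and at sls-2.16 replicate 1 was.

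Comparisons of copies were possible where sls-2 genes have nearly the same upstream sequence. The pair sls-2.10 and sls-2.11 and the trio sls-2.12, sls-2.17 and sls-2.13, all on chromosome IV, are shown because their 100 upstream bases are alike, while 1 gene of each set was not in the conservative list. Capitals mark the leader in the gene of sls-2.10, and in the upstream sequences TGTCGGTA, an 8-mer described further on.
sls-2.10 gene, chrIV:9130721-9130829, minus strand: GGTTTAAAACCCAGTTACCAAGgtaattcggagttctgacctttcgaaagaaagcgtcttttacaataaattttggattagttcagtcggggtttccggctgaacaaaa
sls-2.10 upstream, chrIV:9130830-9130929, minus strand: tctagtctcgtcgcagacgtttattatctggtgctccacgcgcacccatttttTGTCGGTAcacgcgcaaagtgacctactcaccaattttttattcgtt
sls-2.11 upstream, chrIV:9140315-9140414, plus strand: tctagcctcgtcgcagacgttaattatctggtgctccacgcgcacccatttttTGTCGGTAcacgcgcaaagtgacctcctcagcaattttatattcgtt
sls-2.12 upstream, chrIV:5261813-5261912, plus strand: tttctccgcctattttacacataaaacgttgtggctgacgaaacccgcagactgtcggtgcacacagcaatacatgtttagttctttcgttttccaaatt
sls-2.17 upstream, chrIV:5317369-5317468, minus strand: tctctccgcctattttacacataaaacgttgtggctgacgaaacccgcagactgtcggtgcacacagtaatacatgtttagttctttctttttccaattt
sls-2.13 upstream, chrIV:5063532-5063631, minus strand: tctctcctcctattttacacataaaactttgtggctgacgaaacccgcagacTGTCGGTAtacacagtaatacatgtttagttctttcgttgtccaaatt
The genes sls-2.10 and sls-2.11 are 99.1% identical, and their 250 upstream bases are 93.2% identical. At sls-2.10 the signals were 31.4 and 40.7 (36.0 ± 6.57), with a pooled signal of 67.8 in the conservative list. At sls-2.11 there was no region in the joint ranked list used here and replicate 2's own ranked list held one of 29.3. The other ranked list of the series, also made from both replicates, held a region there with a pooled signal of 57.8 and a score of 712, below the threshold. In both windows of 200 bp on either side of the 5′ end, 91.5% of the 50-base stretches occur once in the genome. In the trio, sls-2.12 had signals of 36.5 and 33.1 (34.8 ± 2.42) and a pooled signal of 71.5, and sls-2.17 a pooled signal of 66.0. At sls-2.13 the region had a pooled signal of 29.2 and fell below the threshold. Its 100 upstream bases are 93.0% identical to those of each of the other genes of the trio, but over 250 upstream bases the identity is 65.2% with sls-2.12 and 69.2% with sls-2.17. With 1 group of 2 replicates no test of a difference between single genes was made.

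The 12 sls-1 genes, which make SL1 RNA, lie in 1 tandem cluster of 13954 bp on chromosome V, from 17118154 to 17132107, among rRNA genes, of which 13 were annotated within 2000 bp of the span. The sls-1.10 gene and its upstream sequence are shown because the same leader, in capitals, begins 10 of the 12 genes (the annotated model of this one starts 1 base before it).
sls-1.10 gene, chrV:17120694-17120791, minus strand: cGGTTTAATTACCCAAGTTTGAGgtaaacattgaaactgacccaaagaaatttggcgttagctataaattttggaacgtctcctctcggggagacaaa
sls-1.10 upstream, chrV:17120792-17120891, minus strand: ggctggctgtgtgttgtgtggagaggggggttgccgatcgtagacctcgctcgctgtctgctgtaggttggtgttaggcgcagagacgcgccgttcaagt
None of the sls-1 genes had a summit of the joint ranked list within 200 bp of the 5′ end (0 of 12). The 95% exact interval, 0 to 26.5%, is for counting error only and takes these tandem genes as separate cases. At sls-1.12 replicate 1's own ranked list held a region of 16.4 in the window of 200 bp. The joint list held a summit 206 bp from the 5′ end of sls-1.12, just outside the window, with a pooled signal of 33.1 and a score of 168. The cluster held 6 ranked summits, 206 to 1228 bp from the nearest sls-1 5′ end. The strongest, at 17122200, had a pooled signal of 136.9 and replicate signals of 31.2 and 100.8, and lay 433 bp from the 5′ end of sls-1.11. Its score of 1000 is past the lowest score of the conservative list, 830, but it is 1 of 87 such nuclear regions that the conservative list does not hold. The next had a pooled signal of 53.3 and a score of 551, 302 bp from sls-1.4.

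Repeated sequence moved with this count. Around 11 of the 12 sls-1 genes none of the 50-base stretches within 200 bp of the 5′ end occurs once in the genome, and at sls-1.12 the share was 14.2%. The sls-2 genes had a median of 94.6%. Over all 129 genes, 29 had at most 50% unique stretches and 0 of these had a conservative summit, while 31 of the 100 genes with more had one (31.0%). Among the 71 genes between 50% and 100% the share was 36.6%, and among the 29 genes with every stretch unique it was 17.2%. These 29 include 8 smy genes, 12 of the remaining genes and 6 sls-2 genes, so the classes also differ in their mix of groups. The part of repeated sequence in the missing regions was not tested, and neither the read length nor the treatment of reads that map to several places is stated in the labels or files.

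**Figure D3:**
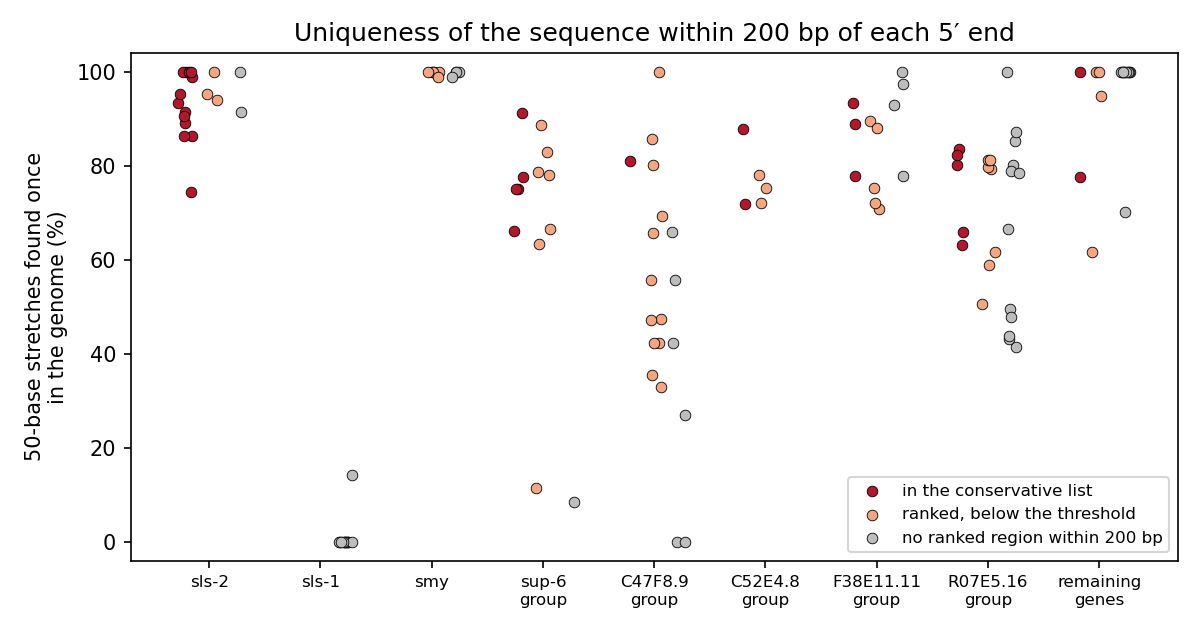
Share of the 50-base stretches within 200 bp of each 5′ end that occur once in the genome (vertical axis, %), for each of the 129 genes by sequence group, in dark red if conservative, light if ranked below the threshold and grey if no region was ranked. The sls-1 genes lie at 0 to 14.2%, and no dark point lies below 50%, whereas grey points also lie at 100% in the smy group and among the remaining genes.

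Outside the spliced leader genes, sup-6, a U1 snRNA gene, was the highest of its group. U1 snRNA pairs with the 5′ splice site. Its upstream sequence is shown with 2 genes of the R07E5.16 group, W05B2.8 and F54D8.7, because all 3 hold CGGAACCC, in capitals.
sup-6, chrII:12944968-12945067, minus strand: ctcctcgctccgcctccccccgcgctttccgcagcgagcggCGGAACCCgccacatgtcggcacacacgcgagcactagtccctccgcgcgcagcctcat
W05B2.8, chrIII:10989579-10989678, plus strand: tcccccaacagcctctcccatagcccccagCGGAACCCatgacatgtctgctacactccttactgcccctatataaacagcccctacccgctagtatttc
F54D8.7, chrIII:5080899-5080998, minus strand: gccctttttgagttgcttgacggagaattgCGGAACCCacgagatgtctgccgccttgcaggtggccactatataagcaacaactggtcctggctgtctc
At sup-6 (WBGene00006315) the signals were 76.8 and 64.3 (70.5 ± 8.82), with a pooled signal of 135.2, and the summit stood 41 bp inside the gene. At sup-39, a further U1 snRNA gene, they were 61.0 and 28.2 (44.6 ± 23.2), with a pooled signal of 94.8, and the replicates differed by more than 2-fold there. The 22-base model mir-1831 lies within sup-39 and has the same summit, so this region counts for both. The other 3 genes of the group with a conservative summit were F08H9.11 (pooled signal 73.2) and the overlapping models T27E4.12 and T27E4.22, which share 1 summit of 58.0. A further 7 genes of the group had regions of 41.0 to 58.1 below the threshold.

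The R07E5.16 group held the second strongest snRNA gene, W05B2.8 (WBGene00014543), which lies inside dhc-4, on its strand, on chromosome III. The signals were 116.7 and 104.5 (110.6 ± 8.62), with a pooled signal of 226.7 and a rank of 30 among the 979 regions, and the summit stood 36 bp upstream. The next in the group were Y9C9A.111, with signals of 57.1 and 42.8 (49.9 ± 10.1), and C28A5.7, with 71.5 and 24.2 (47.8 ± 33.5). The spread at C28A5.7 was the largest ratio between replicates among the 31 genes, 2.96. K09C6.12 (pooled signal 90.2) and F54D8.7 (75.7) completed the 5. Of the other 19 genes, 7 had regions of 17.6 to 58.6 below the threshold and 12 had none. TATATA, on the sense strand, lay within 50 bases upstream at 16 of the 24 genes of the group, against 3 of the 105 snRNA genes outside it and 3.0% of all nuclear genes.

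The C52E4.8 group was led by C52E4.8, with signals of 54.4 and 71.0 (62.7 ± 11.7) and a pooled signal of 120.8. Its summit, 21 bp upstream, also lay 374 bp upstream of snr-4, which encodes an Sm protein and runs the other way. F10D2.13 (74.6) was the only other gene of the group in the conservative list. In the F38E11.11 group, F38E11.10 had signals of 72.9 and 42.9 (57.9 ± 21.2) and a pooled signal of 99.3, ahead of ZK897.3 (61.5) and Y69A2AR.36 (59.3). F38E11.10 and F38E11.11 have identical gene bodies, while their 100 upstream bases are 52.9% identical, and no region was ranked at F38E11.11 in the joint list (22.1 in replicate 1's own list).

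The C47F8.9 group held 1 conservative summit, at Y57G11C.35 (pooled signal 73.1), and 12 regions of 3.49 to 51.3 below the threshold. The 6 smy genes with a ranked region had pooled signals of 30.8 to 45.7, led by smy-6, and the other 4 had none, although at least 98.9% of the 50-base stretches around every smy gene are unique. The remaining genes with a conservative summit were mir-1831, within sup-39, and M163.13 on the X chromosome (pooled signal 61.2, replicates 34.9 and 32.8, 33.8 ± 1.53). The X-linked genes F20D1.21 and F35B3.10, whose models are 86.5% identical, hold a stretch equal to the SL1 leader at 21 of 22 bases. F20D1.21 had a region of 25.2 below the threshold and F35B3.10 had none.

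Close to the threshold, the lowest scores inside were 876 at sls-2.17, 900 at ZK897.3, 919 at Y69A2AR.36 and 960 at the shared summit of T27E4.12 and T27E4.22. The highest scores outside were 814 at R07E5.16 (pooled signal 58.6), 700 at F40G12.13 (57.3), 678 at sls-2.7 (63.1), 668 at F40G12.14 (56.5) and 641 at ZK897.4 (43.4). The pooled signals on the 2 sides overlap. F08H9.10, for example, had a pooled signal of 58.1 but a score of 77, with replicate signals of 39.8 and 13.0. Unlike replicate signals did not always go with a low score. C28A5.7, with signals of 71.5 and 24.2, scored 976 and lay inside. F40G12.14, with closer signals of 24.4 and 26.9, scored 668 and lay outside. What sets the score of a region was not tested.

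The replicates' own thresholded lists were smaller than the conservative list, with 498 and 448 nuclear regions against 979. Of the 31 genes, 9 were in both lists, 7 in that of replicate 1 alone, 3 in that of replicate 2 alone and 12 in neither. The 9 were sls-2.1, W05B2.8, sls-2.2, sls-2.4, sls-2.9, C52E4.8, sls-2.8, F38E11.10 and Y9C9A.111, all among the 12 highest. The higher replicate signal was a median of 1.41 times the lower over the 31 genes, and it was over 2 times the lower at C28A5.7, sup-39 and mir-1831. Replicate 1 was the higher at 20 of 31 genes. Over the 78 snRNA genes with a ranked region the 2 replicate signals had a Spearman rho of 0.721. It was 0.432 over the 979 nuclear conservative regions and 0.234 over all 59096 ranked nuclear regions. The Pearson correlation of the log2 signals was 0.75, 0.66 and 0.36 in turn, a smaller gap between the first and second sets. These sets are unlike, with median pooled signals of 49.0, 76.8 and 22.7 in that order. The genes share the same 2 libraries and some share a summit, so all these values are descriptions.

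**Figure D4:**
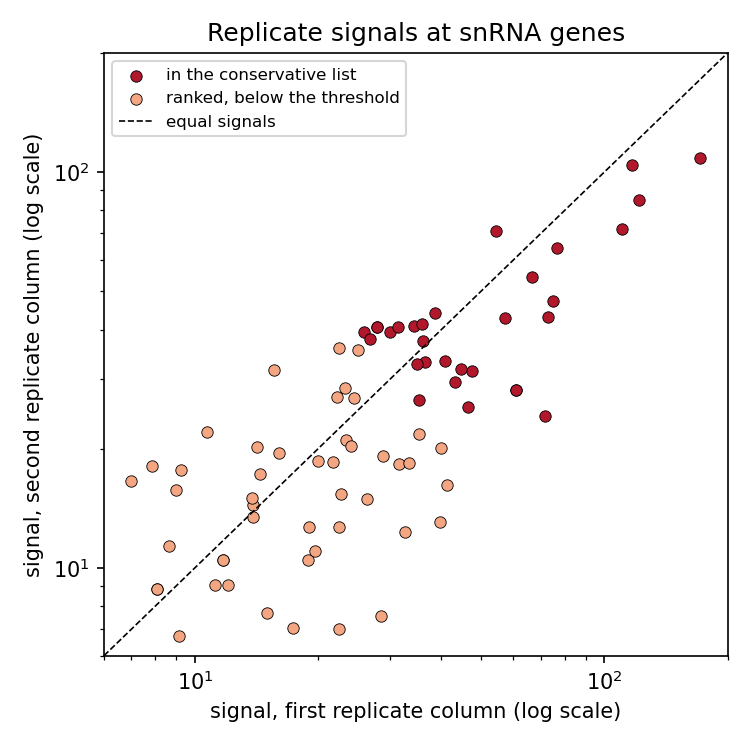
Replicate signals of the 78 snRNA genes with a ranked region, the first replicate column against the second (both log axes), dark red if conservative, with a dashed line of equal signals. At the 31 conservative genes these columns equal the signals of replicates 1 and 2, and the points run along the line with 20 of 31 below it.

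The summits of the 31 genes lay close to the 5′ end. Their median position was 15 bp upstream (quartiles 36.5 bp upstream and 9 bp downstream), 26 lay within 50 bp and 30 within 100 bp. The median was 27 bp upstream in the list of replicate 1 alone and 12.5 bp upstream in that of replicate 2 alone, and 4 bp upstream when summits within 500 bp were taken. For all other genes with a conservative summit within 200 bp the share within 50 bp was 40.6%, and it was 72.9% for tRNA genes, 66.2% for snoRNA genes and 24.0% for protein-coding genes. The median position was 10 bp downstream for tRNA genes, 32 bp upstream for snoRNA genes and 95 bp upstream for protein-coding genes. The gene itself had the nearest 5′ end of any annotated gene at 28 of the 31, while another snRNA model was nearer at sup-39 and T27E4.12 and an ncRNA gene, Y75B8A.49, at sls-2.8. A protein-coding gene contained 15 of them, 12 on the same strand, while a protein-coding 5′ end lay within 200 bp at 1.

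**Figure D5:**
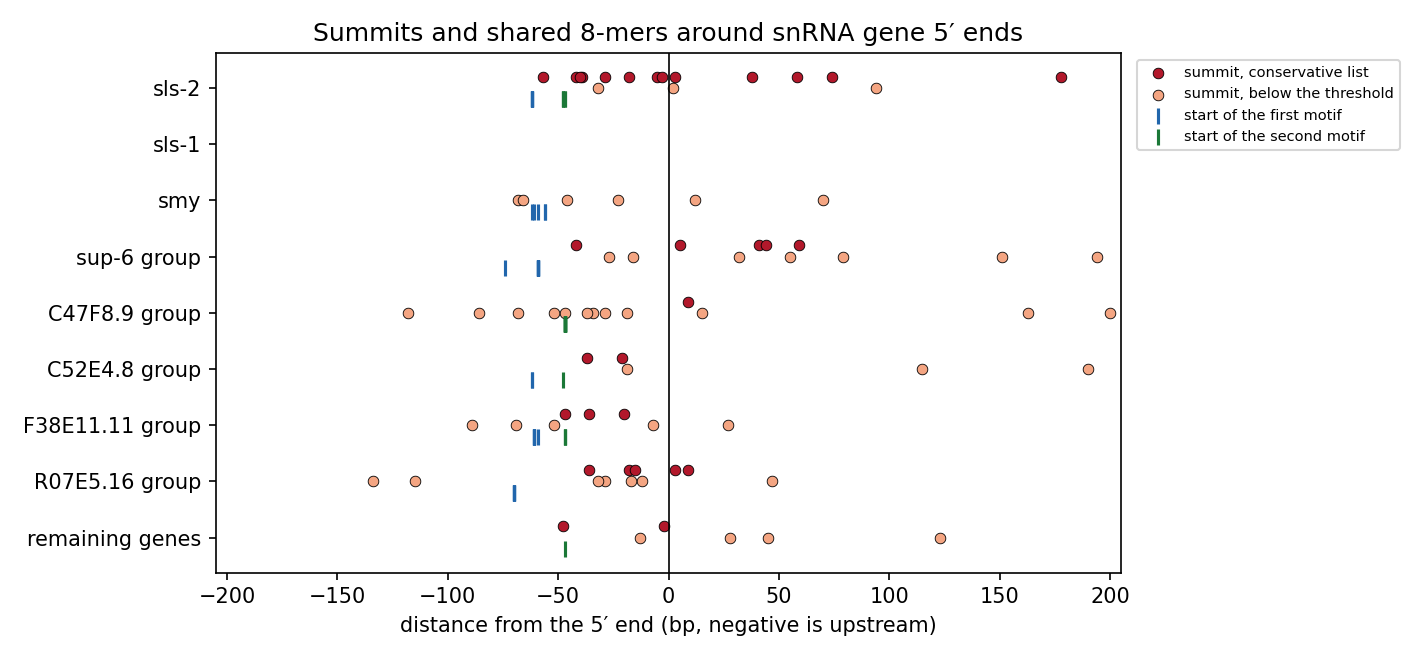
Position of each summit relative to the gene's 5′ end (bp, negative is upstream), by sequence group, dark red if conservative and light if below the threshold, with ticks at the starts of the 2 shared 8-mers (blue the first, green the second). The ticks lie between 74 and 47 bp upstream, and 26 of the 31 dark points lie within 50 bp of the 5′ end.

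Short motifs recurred in the upstream sequences; 8-mers were counted over all 129 genes without regard to peaks, while TGTC and TATATA were chosen after the sequences were seen. CGGAACCC, on the sense strand of the 250 bases upstream, was the 8-mer present in the most different windows, 30 of 119 (25.2%). It stood at 31 of the 129 genes (24.0%), against 0.254% of all nuclear genes. Among nuclear genes whose window is not also that of an snRNA gene the share was 0.188%. Because CGGAACCC was picked as the most frequent here, a higher share than elsewhere is partly fixed by that choice. Its starts lay 74 to 56 bases upstream. The start at 74 was that of T27E4.22, and the same site starts 59 bases upstream of the overlapping model T27E4.12. That site counts at both genes, which both had a conservative summit. On either strand CGGAACCC stood at the same 24.0% of snRNA genes and at 0.339% of all nuclear genes. It was present at 12 of the 31 genes with a conservative summit (38.7%), 12 of the 47 below the threshold (25.5%) and 7 of the 51 with none (13.7%). The sup-6 group held it at 8 of 13 genes, the smy and F38E11.11 groups at 5 of 10 and 6 of 12, and the sls-1 and C47F8.9 groups at none. Among snoRNA genes it stood at 5.78%, and among tRNA genes at 0 of 612.

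TGTCGGTA was the most shared 8-mer with no run of 4 bases in common with the first, on either strand. It too was picked for its frequency in these windows. It stood at 23 genes (17.8%), against 0.173% of all nuclear genes, starting 48 or 47 bases upstream. It was at 6 conservative genes, 11 below the threshold and 6 with none, and 13 of its 23 genes were in the C47F8.9 group. Both motifs stood together at 4 genes, always 14 bases apart from start to start, and 15 of the 31 genes with a conservative summit held neither. The first 4 letters of the second motif, TGTC, started 60 to 44 bases upstream at 87 of 129 genes (67.4%), against 5.4% of all nuclear genes. TGTC stood there at 26 of the 31 genes with a conservative summit (83.9%), 32 of 47 below the threshold (68.1%) and 29 of 51 with none (56.9%). It was at 15 of 18 sls-2 and 10 of 12 sls-1 genes but at 0 of 10 smy genes. Of the 129 windows of 250 bases 119 are different, some of them closely alike, so the genes are not all independent cases, and the match of letters is not a measured site.

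Genes for the proteins of these particles, their transcription factors and their processing factors were looked up as well, from a list of 60 of which 56 were matched. A conservative summit lay within 200 bp of 1 of these 5′ ends (1.79%), against 1.15% of protein-coding genes. It was that of ints-4 on chromosome I, which encodes a subunit of the Integrator complex that cleaves the 3′ ends of snRNAs (pooled signal 186.2, replicates 115.0 and 72.3, summit 36 bp inside). In a window from 1000 bp upstream to 200 bp downstream there were 2 (3.57%), against 2.94% of protein-coding genes. The other was snr-4, by the summit at C52E4.8. Any ranked summit, past the threshold or not, lay within 200 bp at 26 of the 56 genes, against 5101 of 19973 protein-coding genes.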

How the data were processed

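Chromatin from 1 group of 2 biological replicates was precipitated with an antibody against GFP and fragmented by sonication, per the labels. The authors' deposited files are ranked and thresholded peak lists on ce11, called per replicate and from both replicates, with read depth unknown and the aligner and peak caller not given in the sources used here. The deposited score is the scaled IDR (830 at an IDR of 0.01), and the deposited signal is the authors' peak height. The main threshold was the conservative list. In the joint ranked list the order of the replicate columns is not named, but at all 31 genes with a conservative summit their values equal those of the ranked lists of replicates 1 and 2, which name them here.

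Genes came from Ensembl release 115 on WBcel235, and symbols from RefSeq by gene ID (129 of 129 matched). A gene took the highest signal with a summit within 200 bp of its 5′ end. Models linked at 75% identity by global alignment formed groups, and linked sets of under 5 were not given a group. Uniqueness is the share of 50-mers found once in either strand of the genome. Shares have 95% exact (Clopper-Pearson) intervals for counting error only, no test between groups was possible, and steps were tested on simulated data. Members, lists and tests were chosen with earlier results of these data known. Named were the 12 genes with the highest signals, the extremes of the spliced leader genes, the 5 on each side of the threshold and genes sharing a summit with the protein list. Other names were chosen after their values were seen. Alternatives were other windows, lists, thresholds, single replicates, nearest genes and motif lengths. Tools were Python 3.11.15 with Biopython 1.88, pandas 2.3.3, SciPy 1.17.1, matplotlib 3.10.9 and NumPy 2.4.6.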

Additional observations from a re-analysis of the deposited data

How the results depend on the processing

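Other windows, the other series list, an IDR of 0.05, every region past the lowest score and the nearest gene alone were tried. They gave 28 to 38 snRNA genes with a summit, against 31 with a conservative summit as reported. The 38 came from the ranked list at an IDR of 0.05, 34 from conservative summits within 500 bp and 32 from the other series list. Shares over all nuclear genes are not given for these settings. Leaving out 1 replicate lowered the counts, as the list of 1 replicate was then used: to 12 without replicate 1 and 18 without replicate 2 for all snRNA genes, to 6 and 5 for the spliced leader genes (13 as reported), and to 6 and 13 for the other snRNA genes (18 as reported). The median summit position was 15 bp upstream (-15), and it was -4 with summits within 500 bp, -12.5 without replicate 1 and -27 without replicate 2. The share of different upstream windows with the most shared motif was 25.2% for 8-mers, 18.5% for 10-mers and 46.2% for 6-mers, the last of these being AAAAAT. Counting each summit once (29) and leaving out the model inside another gene (17 other snRNA genes) were added after the data were seen. No paired analysis was possible because there was 1 group. Without read totals, an absent region cannot be told apart from a weak one.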
